A study of Mus musculus with 6 samples.

Results

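The genes described here are 10 components of the Notch signalling pathway in differentiating mouse beige adipocytes. They are the receptors *Notch1*, *Notch2* and *Notch3*, the ligands *Jag1* and *Dll1*, the DNA-binding effector *Rbpj*, and the target genes *Hes1*, *Hey1*, *Hey2* and *Heyl*. They were picked out by gene symbol, and all 10 were found among the 56884 genes of each library.

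RNA was sequenced from an immortalized SVF cell line of mouse scWAT, 2 days into differentiation towards beige adipocytes, in 3 biological replicates for each of 2 mutants. The stromal vascular fraction (SVF) is the part of adipose tissue that holds the adipocyte precursors, and scWAT is subcutaneous white adipose tissue. One group stably overexpressed mouse PPARγ2 K382Q and the other PPARγ2 K382R, both HA-tagged and introduced with a retroviral pMXs-Puro vector. PPARγ2 is the master transcription factor of adipocyte differentiation. K382Q has glutamine at the lysine, which mimics its acetylated state, and K382R has arginine, which mimics the deacetylated state. Both groups received the same induction medium with isobutylmethylxanthine, indomethacin, dexamethasone, insulin, T3 and the PPARγ agonist rosiglitazone. Both mutants were expressed in a single parental cell line. A group without mutant PPARγ2 was not analysed here, so each difference is one between the 2 mutant lines. These stable lines were made by infection and puromycin selection. Whether the replicates came from separate infections is not given in the sources used here. A difference between the selected lines thus cannot be told apart from one of the mutation.

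Notch receptors are single-pass membrane proteins that are activated by ligands of the Jagged and Delta-like families on neighbouring cells. Ligand binding exposes the receptor to ADAM proteases and then to γ-secretase, and the released intracellular domain enters the nucleus, joins the DNA-binding protein RBPJ and a Mastermind coactivator, and switches on the *Hes* and *Hey* genes. HES and HEY proteins are transcriptional repressors, and in white adipocytes Notch signalling through HES1 is known to restrain thermogenic genes such as *Prdm16*, *Ppargc1a* and *Ucp1*.

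The libraries held 5.95 to 7.5 Gb of aligned read length in K382Q and 6.53 to 8.15 Gb in K382R, and the first principal component of all tested genes (61.3% of the variance) separated the mutants. Values are TPM, a length-corrected share of all transcripts in a library. The mutants were compared with limma after conversion to log2(TPM + 0.5), for the 15426 genes that reached 0.5 TPM in 3 or more libraries. Each log2 fold change is K382Q against K382R on that scale, with its standard error (SE) and a Benjamini-Hochberg adjusted p over all genes tested. The libraries differed widely: 48.1% of all tested genes passed an adjusted p of 0.05, with 11.1% higher and 36.9% lower in K382Q, and the median gene lay at -0.14. Median-ratio scaling, which centres the libraries on their typical gene, put the median gene at 0.0032, the share of genes higher at 19.8% and the share lower at 20.4%.

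Of the 10 members, 8 were expressed highly enough to be tested, and *Dll1* and *Heyl* were not. A single member, *Notch2*, passed the test, and it was lower in K382Q. This was 12.5% of the tested members, beside 48.1% of all tested genes called and 36.9% called lower. No tested member was higher at an adjusted p under 0.05, and none differed by more than 2-fold, a size that 3.88% of all tested genes reached with an adjusted p under 0.05. *Hes1* became a second called member, higher in K382Q, with median-ratio scaling. The members' median log2 fold change was 0.03, beside -0.14 for all tested genes, and with median-ratio scaling it was 0.18. In 5 of the 8 tested members (*Notch1*, *Notch2*, *Notch3*, *Hes1* and *Hey1*) the 3 values of one mutant did not overlap those of the other, which was the case for 57% of all tested genes.

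**Figure D1:**
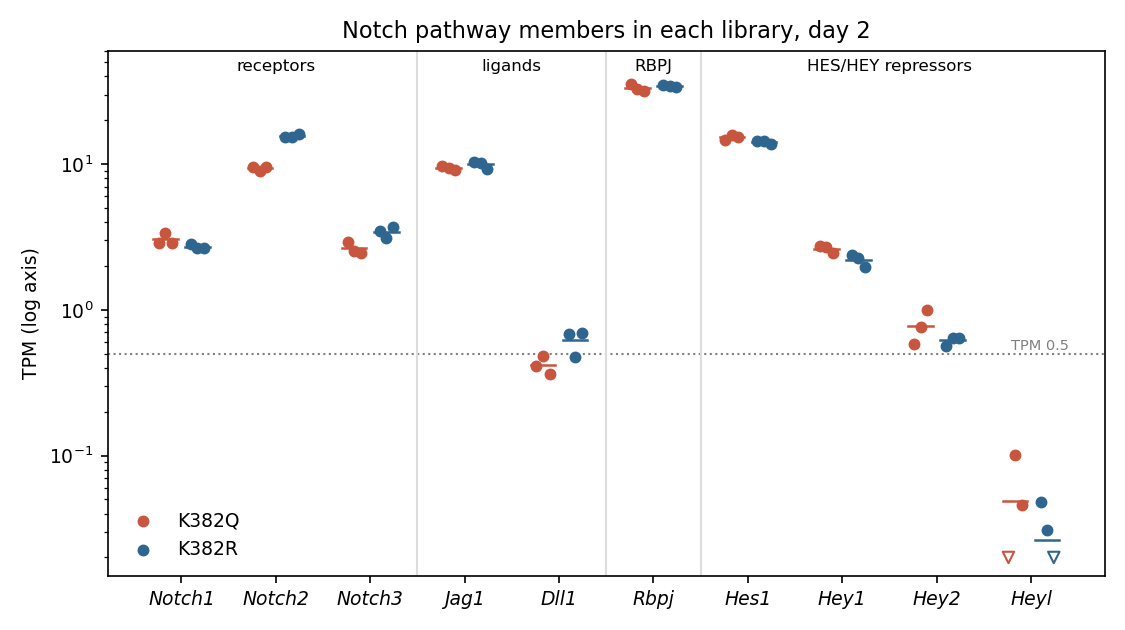
TPM (vertical log axis) of the 10 Notch pathway genes, ordered by role; each point is one library (3 K382Q and 3 K382R replicates), horizontal bars are group means, open triangles mark libraries listed at 0 and the dotted line is the filter of 0.5 TPM. *Notch2* shows the widest gap between the groups among the tested genes (9.01 to 9.60 against 15.3 to 16.1 TPM), whereas *Jag1*, *Dll1*, *Rbpj*, *Hey2* and *Heyl* overlap.

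*Notch2* (ENSMUSG00000027878.12, chromosome 3, 97920843 to 98057677, plus strand, GRCm39) was the most abundant of the Notch receptors in both mutants. Its TPM was 9.60, 9.01 and 9.57 in K382Q and 15.3, 15.4 and 16.1 in K382R. Every K382Q library lay below every K382R library, by more than the spread within either group (9.39 ± 0.335 against 15.6 ± 0.419; SD, n = 3 each). The mean was 39.7% lower in K382Q (log2 fold change -0.70, SE 0.0591, 95% confidence interval -0.84 to -0.56; adjusted p = 5.48e-05, limma). The decrease was larger than that of the median gene by 0.57 on the log2 scale, and with median-ratio scaling it was -0.55 (adjusted p = 0.000192). The depth behind the values was 22.7 to 27.0 reads per base in K382Q and 39.3 to 47.7 in K382R. Since RNA was taken from whole cultures, fewer *Notch2*-expressing cells and less *Notch2* RNA per cell cannot be told apart.

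Markers of several cell types differed in the same comparison. The summed TPM of 7 fibroblast or adipocyte progenitor markers was 531 to 575 in K382Q and 922 to 957 in K382R, and all 6 of them that could be tested were lower in K382Q, while *Lum* was listed at 0 in every library. Of 7 adipocyte markers, 2 were higher (*Fabp4* and *Cidec*) and 3 lower in K382Q (*Adipoq* -1.28, *Cebpa* -0.81 and *Lpl* -0.19 on the log2 scale). With median-ratio scaling 3 were higher, *Plin1* being added (0.10, adjusted p = 0.0292), and 2 lower, as *Lpl* lost its call (-0.03, adjusted p = 0.405). Their sum, 51457 to 55363 against 42760 to 44005 TPM, was mostly *Fabp4* (mean 47893 against 37837 TPM). Markers of other cell types known to express Notch receptors were also listed, and the share of such cells was not tested. Of 7 endothelial markers, 6 were below 1 TPM in every library, with *Emcn* at 0. The sum of the endothelial markers was 1.69 to 2.25 against 1.69 to 1.82 TPM, mostly *Pecam1* (mean 1.75 against 1.53 TPM). *Kdr*, below the filter (mean 0.0228 against 0.134 TPM), was lower in K382Q when tested without it (log2 fold change -0.28, adjusted p = 0.0219, limma). Of 7 leukocyte markers, 6 were below 1 TPM in every library, among them 3 at 0 throughout. The leukocyte sum, 3.51 to 4.66 against 3.31 to 5.10 TPM, was mostly *Cd68* (mean 4.08 against 4.14 TPM). Of 6 pericyte or smooth muscle markers, 4 were below 1 TPM throughout, and the sum was 7.80 to 8.50 against 5.38 to 6.24 TPM. *Pparg* itself, counting the introduced and the endogenous transcripts together, was 1333, 1164 and 1104 TPM in K382Q and 1590, 1632 and 1612 in K382R. It was 25.5% lower in K382Q (log2 fold change -0.43, SE 0.0638, adjusted p = 0.000977, limma). The part of marker-expressing cells or of the *Pparg* level in the *Notch2* difference was not tested.

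*Notch1* (ENSMUSG00000026923.16, chromosome 2, 26347915 to 26406675, minus strand) lay on the other side of K382R. Its TPM was 2.87, 3.38 and 2.87 in K382Q and 2.84, 2.64 and 2.67 in K382R. The groups did not overlap, but the nearest libraries were almost equal, and the difference did not pass the test (log2 fold change 0.14, SE 0.112, adjusted p = 0.360). The 95% interval of -0.12 to 0.39 leaves out a decrease of the size seen for *Notch2*. With median-ratio scaling the difference was 0.26 (adjusted p = 0.101).

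*Notch3* (ENSMUSG00000038146.9, chromosome 17, 32339794 to 32385826, minus strand) had its lower values in K382Q, like *Notch2*. Its TPM was 2.93, 2.54 and 2.47 in K382Q and 3.46, 3.09 and 3.72 in K382R. The groups did not overlap and the mean was 22.6% lower in K382Q, but the difference was just outside the threshold (log2 fold change -0.32, SE 0.117, adjusted p = 0.0568). It passed without K382Q replicate 1 (-0.38, adjusted p = 0.0455), and with median-ratio scaling it was -0.19 (adjusted p = 0.231). A transcript on the opposite strand, *Gm17276*, overlaps *Notch3*. It was at 0.681, 1.06 and 1.52 TPM in K382Q and 1.66, 1.72 and 1.89 in K382R. *0610009E02Rik*, which overlaps *Notch1* on the opposite strand, was at 0.879, 1.06 and 1.10 against 0.267, 0.385 and 0.275 TPM. Whether the reads were assigned by strand is not given in the sources used here, so reads of these pairs may not have been told apart.

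The receptors together amounted to 18.5 ± 0.505 TPM in K382Q and 24.4 ± 0.569 in K382R (exact permutation test, two-sided, p = 0.1, the smallest that 3 against 3 libraries allow). This sum includes *Notch4*, the remaining receptor, which was at 3.64, 3.25 and 3.24 TPM in K382Q and 2.27, 3.18 and 2.54 in K382R (log2 fold change 0.30, SE 0.134, adjusted p = 0.104). *Notch4* passed as higher in K382Q with median-ratio scaling (0.43, adjusted p = 0.0342) and with scaled coverage (0.38, adjusted p = 0.0103), the read depth per base of a gene scaled to the same sum over all genes in every library. *Notch2* made up 50.4, 49.5 and 52.7% of the receptor TPM in K382Q and 64.1, 63.3 and 64.3% in K382R, so the receptor pool was less dominated by *Notch2* in every K382Q library (exact permutation p = 0.1). The share of *Notch1* was 16.5% ± 1.87 in K382Q against 11.2% ± 0.668 in K382R (exact permutation p = 0.1). The share of *Notch3* was nearly equal, 14.3% ± 0.936 against 14.0% ± 1.15 (exact permutation p = 0.8), and that of *Notch4* was 18.3% ± 0.713 against 10.9% ± 1.90 (exact permutation p = 0.1). The ratio of *Notch2* to *Notch1* TPM was 3.34, 2.66 and 3.34 in K382Q and 5.38, 5.82 and 6.02 in K382R. These ratios within a library are not changed by how libraries are scaled to each other.

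**Figure D2:**
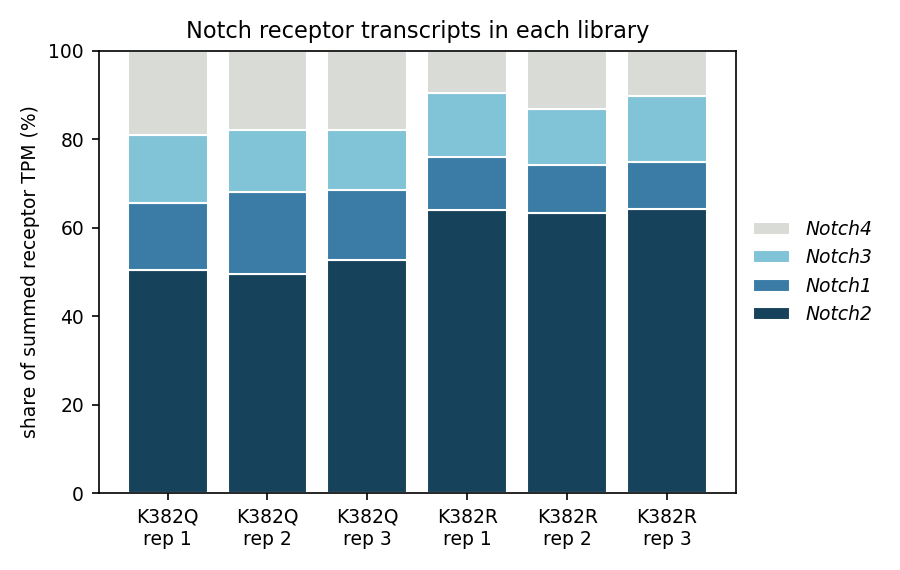
Share of each of the 4 Notch receptors in their summed TPM (vertical axis, percent), one stacked bar per library for 3 K382Q and 3 K382R replicates. *Notch2* fills 49.5 to 52.7% of the K382Q bars and 63.3 to 64.3% of the K382R bars.

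*Jag1* (ENSMUSG00000027276.8, chromosome 2, 136923376 to 136958564, minus strand) was the main ligand. Its TPM was 9.77, 9.39 and 9.17 in K382Q and 10.4, 10.3 and 9.26 in K382R. The groups overlapped, and the log2 fold change was -0.07 (SE 0.0710, adjusted p = 0.448), with a 95% interval of -0.24 to 0.09. Its sign turned with median-ratio scaling (0.07) and with FPKM (0.0078), so no direction is given. *Notch2* and *Jag1* were about equal in K382Q, with a ratio of 0.995 ± 0.0437, whereas *Notch2* exceeded *Jag1* 1.57 ± 0.143 times in K382R (exact permutation p = 0.1).

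*Dll1* (ENSMUSG00000014773.14, chromosome 17, 15587616 to 15597134, minus strand), a Delta-like ligand, was near the limit of what these libraries resolve. Its TPM was 0.411, 0.481 and 0.363 in K382Q and 0.678, 0.475 and 0.696 in K382R, which corresponds to 0.750 to 1.26 and 1.23 to 1.52 reads per base. One K382R library fell within the K382Q range. Without the filter on low values the log2 fold change was -0.28 (adjusted p = 0.232, limma).

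*Rbpj* (ENSMUSG00000039191.13, chromosome 5, 53623494 to 53814704, plus strand) showed no detectable difference. Its TPM was 35.6, 33.0 and 31.8 in K382Q and 34.7, 34.4 and 33.6 in K382R. The K382Q values spread across the K382R values, and the log2 fold change was -0.03 (SE 0.0501, 95% interval -0.15 to 0.08, adjusted p = 0.626). Its sign turned with median-ratio scaling (0.12), with FPKM (0.049) and without K382Q replicate 3 (0.0022). The level of *Rbpj* relative to other genes is uncertain. It ranked 1 of 10 members by TPM, but 4 of 10 by scaled coverage (5.31 in K382Q and 5.45 in K382R, where *Notch2* had 15.2 and 25.6). The annotation lists 19 transcripts for *Rbpj*, and its pseudogene *Rbpj-ps3* was listed at 5.51 to 7.62 TPM.

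The *Hes* and *Hey* genes are the usual readout of the pathway. RBPJ binds the core motif TGGGAA, and the 250 bases before the annotated start of these members (canonical transcript, GENCODE M39, GRCm39) were searched for it on both strands. It occurred in 21.3% of the windows of 15370 tested genes. Among the members whose windows are described, it was found 2 times in *Hes1* and 1 time in each of *Hey2* and *Rbpj*. It was in none of the windows of *Notch1*, *Notch2*, *Notch3*, *Jag1*, *Dll1* and *Heyl*. The last 200 bases before the start of *Hes1* and *Hey2* are shown 5′ to 3′ on the strand of the gene. Matches to the core motif, or to its reverse complement TTCCCA, are in capitals.
Hes1, chr16:29883927-29884126, plus strand: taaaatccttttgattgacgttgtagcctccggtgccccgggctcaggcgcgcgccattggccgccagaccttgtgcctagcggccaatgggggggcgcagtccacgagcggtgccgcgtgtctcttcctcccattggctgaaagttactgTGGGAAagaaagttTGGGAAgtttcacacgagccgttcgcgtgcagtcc
Hey2, chr10:30718829-30719028, minus strand: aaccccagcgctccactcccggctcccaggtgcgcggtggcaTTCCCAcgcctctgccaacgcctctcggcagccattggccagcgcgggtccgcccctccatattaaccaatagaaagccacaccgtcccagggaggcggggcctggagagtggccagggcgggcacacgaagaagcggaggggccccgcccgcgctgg
The cores of *Hes1* began 49 and 35 bases before the start, in the same orientation. That of *Hey2* began 158 bases before it, on the opposite strand. All starts are those of canonical transcripts. The windows of *Notch1*, *Dll1*, *Rbpj* and *Hes1* lie inside the gene bounds given here, so they are not upstream of the whole gene. The deposited bounds of *Hes1* and *Hey2* differ from those of GENCODE M39. HES proteins bind the N-box CACNAG, which was present in 36.1% of the windows and 3 times in that of *Hes1*. The E-box CACGTG (7.01% of windows) and the spaced half-site pair (direct repeat with 1 base between) that PPARγ prefers (0.306%) were in none of the windows described. A match of letters is a description and says nothing of binding in these cells.

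*Hes1* (ENSMUSG00000022528.9, chromosome 16, 29883202 to 29886614, plus strand) was the most abundant *Hes* or *Hey* member. Its TPM was 14.8, 15.8 and 15.2 in K382Q and 14.5, 14.4 and 13.7 in K382R. All K382Q libraries lay above all K382R libraries, but the step was small, 15.3 ± 0.540 against 14.2 ± 0.461. The log2 fold change of 0.10 did not pass the test (SE 0.0564, 95% interval -0.03 to 0.23, adjusted p = 0.178). With median-ratio scaling it was 0.25 and passed (adjusted p = 0.0121), as it did with FPKM (0.17, adjusted p = 0.0305), whereas with scaled coverage it was 0.03 (adjusted p = 0.602), so the call on *Hes1* rests on the unit and on how the libraries are scaled.

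*Hey1* (ENSMUSG00000040289.9, chromosome 3, 8728419 to 8732316, minus strand) was several times lower than *Hes1*. Its TPM was 2.74, 2.70 and 2.45 in K382Q and 2.39, 2.27 and 1.96 in K382R. The groups did not overlap and the K382Q mean was 19.2% above that of K382R, short of the threshold (log2 fold change 0.21, SE 0.120, 95% interval -0.07 to 0.49, adjusted p = 0.187; 0.34 and 0.0555 with median-ratio scaling). *Hey2* (ENSMUSG00000019789.10, chromosome 10, 30708355 to 30718797, minus strand) was below 1 TPM in every library, with 0.582, 0.758 and 0.992 in K382Q and 0.562, 0.643 and 0.645 in K382R. These values overlapped, and the K382Q libraries were the more scattered (log2 fold change 0.18, SE 0.189, adjusted p = 0.465). *Heyl* (ENSMUSG00000032744.5, chromosome 4, 123127349 to 123143668, plus strand) was listed at 0 in a library of each mutant and reached 0.102 TPM at most, so no fold change is given.

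**Figure D3:**
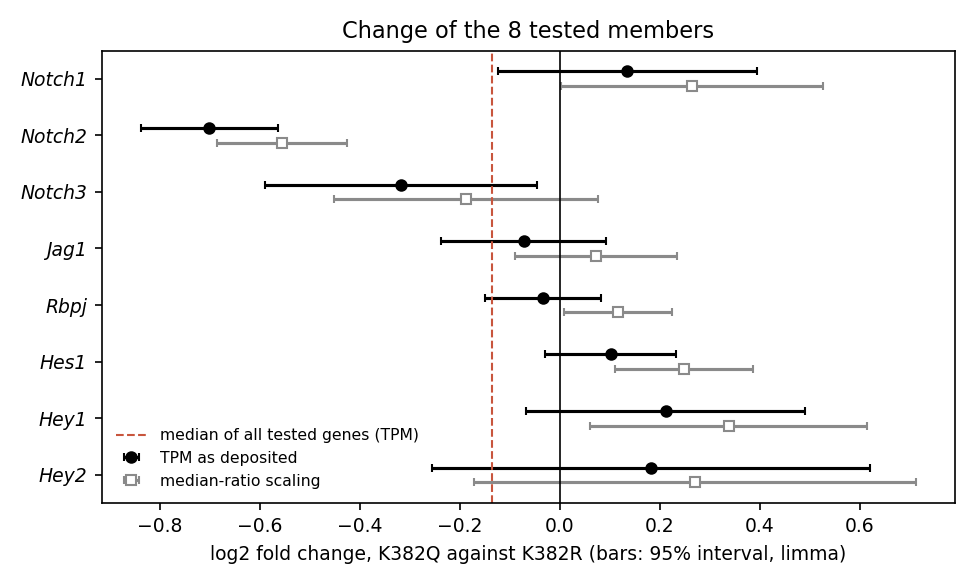
Log2 fold change of the 8 tested members, K382Q against K382R on the log2(TPM + 0.5) scale (horizontal axis), with unadjusted 95% confidence intervals from limma over 3 libraries each; filled circles are from TPM, open squares from median-ratio scaling, and the dashed line marks the median of all tested genes in TPM. *Notch2* at -0.70 lies farthest from 0, and median-ratio scaling moves every member to the right, *Hes1* from 0.10 to 0.25.

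Receptor and target therefore stood in a different proportion in the mutants. The ratio of *Hes1* to *Notch2* TPM was 1.54, 1.76 and 1.59 in K382Q and 0.949, 0.937 and 0.851 in K382R, so *Hes1* TPM exceeded *Notch2* TPM in every K382Q library and was below it in every K382R library (exact permutation p = 0.1). Which of the genes was higher in K382Q depended on the unit, since the coverage per base of *Hes1* was 21.5, 28.1 and 20.9 where that of *Notch2* was 22.9, 27.0 and 22.7. The ratio of *Hey1* to *Notch2* was 0.281 ± 0.0226 against 0.142 ± 0.0177 (exact permutation p = 0.1). Of the genes in these ratios, *Notch2* was the one that passed the test. The ratio of *Hes1* to *Rbpj*, 0.458 ± 0.0371 against 0.415 ± 0.00711, overlapped (exact permutation p = 0.3). The summed TPM of the 4 target genes was 18.7 ± 0.659 in K382Q and 17.1 ± 0.673 in K382R (exact permutation p = 0.1). *Hes1* made up 81.5% ± 0.140 of it in K382Q and 83.3% ± 0.597 in K382R.

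The rest of the pathway was described with a list of 76 further genes, grouped by role, of which 57 could be tested. Of these, 35 were lower in K382Q (61.4%, beside 36.9% of all tested genes) and 3 were higher (5.26%, beside 11.1%). Their median log2 fold change was -0.25. With median-ratio scaling 22 were lower and 11 higher, and the median was -0.10. Whether this list differs from other genes was not tested.

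**Figure D4:**
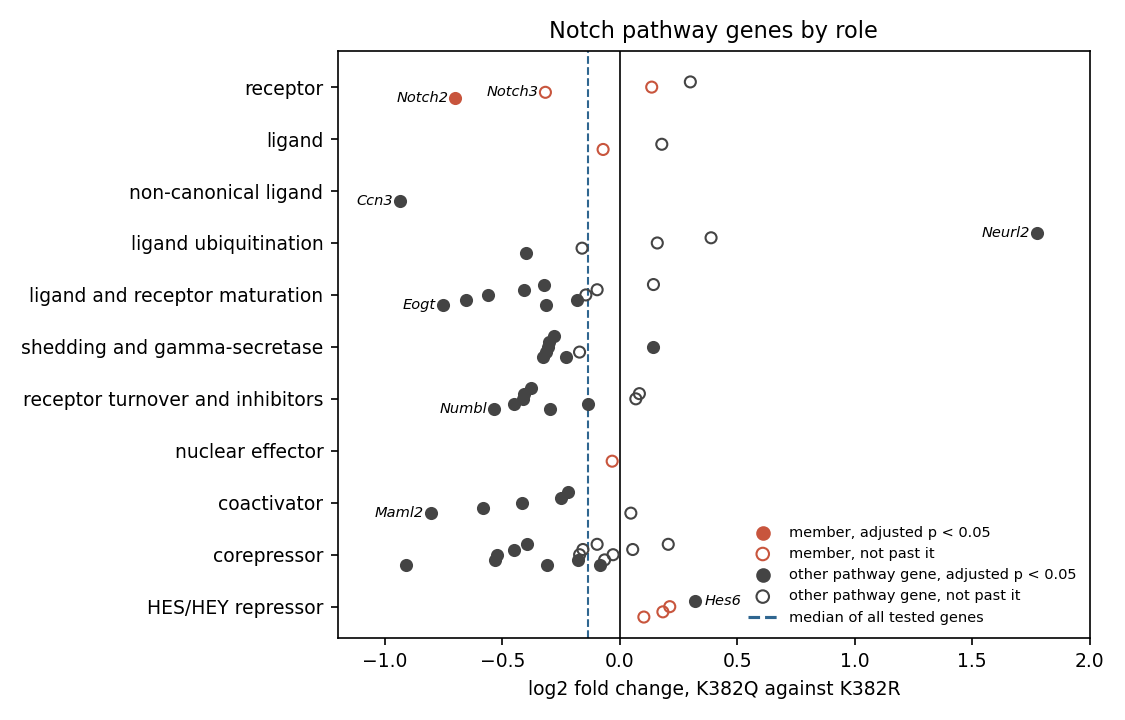
Log2 fold change of the tested Notch pathway genes, K382Q against K382R on the log2(TPM + 0.5) scale (horizontal axis), by role (vertical axis); filled points passed an adjusted p of 0.05, members are in red and the dashed line is the median of all tested genes. Filled points lie mostly to the left of 0, and *Neurl2* at 1.77 stands apart on the right.

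The counts by role are read beside the 36.9% of all tested genes that were lower and the 11.1% that were higher in K382Q, or 20.4% and 19.8% with median-ratio scaling. Of 8 tested genes of receptor shedding and γ-secretase, 6 were lower and 1 (*Psenen*, a small γ-secretase subunit) was higher, and with median-ratio scaling 5 were lower and 1 higher. Of 10 tested genes that glycosylate or cleave the maturing receptors and ligands, 7 were lower and 0 higher, and with median-ratio scaling 4 were lower (40%) and 0 higher. The leading gene was *Eogt*, which adds O-GlcNAc to EGF repeats, at 9.50, 8.18 and 9.91 TPM in K382Q and 15.7, 14.9 and 16.8 in K382R (-0.75, SE 0.0861, adjusted p = 0.000261). Of 9 tested genes of receptor turnover and inhibition, 7 were lower and 0 higher, and with median-ratio scaling 4 were lower (44.4%) and 1 higher. *Numbl*, a relative of the Notch inhibitor Numb, led them (-0.53, SE 0.0983, adjusted p = 0.00288).

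On the side of the ligands, *Jag2* did not pass the test (0.744, 1.51 and 1.04 TPM in K382Q and 0.830, 0.991 and 0.839 in K382R). *Ccn3*, a secreted matricellular protein that binds Notch, fell. Its TPM was 0.686, 0.719 and 0.670 in K382Q and 1.79, 1.92 and 1.64 in K382R, a mean 61.2% lower (log2 fold change -0.94, SE 0.143, adjusted p = 0.00111). Ligand ubiquitination is the step that lets a ligand pull on its receptor. Of 5 tested genes listed under it, 1 was lower (*Mib1*) and 1 higher (*Neurl2*). With median-ratio scaling 1 was lower and 3 higher (*Neurl2*, *Mib2* and *Neurl1b*). *Neurl2* belongs to the Neuralized family, and whether it acts on Notch ligands was not tested. It was the one gene of the pathway list called with a difference over 2-fold on the log2(TPM + 0.5) scale. *Ccn3* also passed 2-fold with a pseudocount of 0.1 (-1.25) or scaled coverage (-1.09). The corepressor *Tle2* was called lower too, at a low level (mean 0.318 TPM in K382Q and 1.02 in K382R). Its mean was 69.0% lower in K382Q (log2 fold change -0.91, adjusted p = 0.00682, limma). *Neurl2* was at 9.50, 7.98 and 8.28 TPM in K382Q and 2.23, 2.58 and 1.71 in K382R (1.77, SE 0.141, adjusted p = 4.12e-05).

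Among the nuclear partners of RBPJ, 5 of 6 tested coactivators and 8 of 15 tested corepressors were lower in K382Q, and 0 of either were higher. With median-ratio scaling 3 coactivators were lower and 1 higher, and 4 corepressors were lower and 3 higher (26.7% and 20% of them). *Maml2*, a Mastermind coactivator of the Notch-RBPJ complex, was at 2.59, 3.08 and 2.69 TPM in K382Q and 5.55, 5.06 and 5.09 in K382R. This was 46.8% lower (log2 fold change -0.81, SE 0.103, adjusted p = 0.000450). Of the other HES genes only *Hes6* could be tested. *Hes6*, which is known to antagonize HES1, was at 21.0, 25.5 and 24.0 TPM in K382Q and 16.9, 19.4 and 19.8 in K382R (0.32, SE 0.0881, adjusted p = 0.0181). This call was lost when K382Q replicate 2 or 3 or K382R replicate 1 was left out (adjusted p = 0.0596, 0.0548 and 0.0547) and without the filter on low values (0.0614). The *Hes6* value exceeded that of *Hes1* in every library.

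Of 10 genes known from other tissues to respond to Notch, 8 could be tested, and 7 were lower and 1 was higher in K382Q (6 and 1 with median-ratio scaling), where 36.9% and 11.1% of all tested genes were lower and higher. *Acta2*, smooth muscle actin, differed most, with 0.675, 0.838 and 0.778 TPM in K382Q and 12.8, 12.6 and 14.4 in K382R (log2 fold change -3.44, SE 0.106, adjusted p = 6.51e-07). The transcription factor *Snai2* was at 13.4, 12.3 and 11.0 against 25.8, 29.1 and 27.8 TPM (-1.14, SE 0.0810). *Snai1* (-0.53), the cyclin *Ccnd1* (-0.89), *Myc* (-0.54), the PDGF receptor *Pdgfrb* (-0.75) and *Gata2* (-0.47) were also lower. The *Gata2* call (adjusted p = 0.0409) was lost under 9 of 15 alternatives, among them the omission of any 1 library other than K382R replicate 3 (adjusted p = 0.0517 to 0.121). The cell cycle inhibitor *Cdkn1a* was higher (0.36, SE 0.0297, adjusted p = 5.26e-05). These genes also respond to many other signals, and several mark mesenchymal cells. Of the mesenchymal markers, those of fibroblasts or progenitors were lower in K382Q, as given above, whereas those of pericytes or smooth muscle went both ways. *Des* was higher (log2 fold change 0.57, adjusted p = 0.00537) and with *Cspg4* made up most of their sum, while *Cnn1*, below the filter, was lower when tested without it (-0.46, adjusted p = 0.0319). The part of Notch signalling in their differences was not tested.

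The thermogenic genes that HES1 is known to restrain were compared next. *Prdm16* was too low to test, at 0.138, 0.113 and 0.0564 TPM in K382Q and 0.0442, 0.0694 and 0.109 in K382R. *Ppargc1a*, a coactivator that drives mitochondrial genes, was at 5.00, 4.57 and 4.28 TPM in K382Q and 1.93, 1.88 and 1.53 in K382R (log2 fold change 1.17, SE 0.122, adjusted p = 0.000163). *Ucp1*, the uncoupling protein of thermogenic adipocytes, was at 0.980, 0.954 and 0.816 against 0.162, 0.0439 and 0.0532 TPM (1.28, SE 0.197, adjusted p = 0.00117). At these low levels the size of the *Ucp1* difference depended on the pseudocount, with 0.82 at a pseudocount of 1 and 2.499 at 0.1, and it could not be tested when a K382Q library was left out, since too few libraries then passed the filter. Both were higher in K382Q. In TPM, *Hes1* was not lower in any K382Q library than in any K382R library. With scaled coverage its log2 fold change was 0.03 (adjusted p = 0.602, limma). With 1 time point, a relation between these genes and the Notch pathway was not tested.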

How the data were processed

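RNA of 6 cultures, 3 per mutant at day 2, was sequenced. The authors trimmed the reads with TrimGalore, used HISAT2 for alignment to GRCm39 and StringTie for gene abundance. Their deposited tables hold the coverage (mean reads per base), FPKM and TPM of each gene. The coverage deposited is a signal that is not normalized, the FPKM deposited by the authors is scaled to the aligned length, and the TPM deposited by the authors sums to the same total in every library. The annotation release is not given in the sources used here. Read counts were not analysed here, so no counting intervals could be given, and precision is that of 3 replicates.

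Repeated gene IDs (at most 5 in a library) were summed. TPM was compared with limma 3.58.1 in R 4.3.3 with an intensity trend and Benjamini-Hochberg adjustment. TPM is a share, so a fall in one gene raises others, and the pseudocount of 0.5 understates changes of low genes. The test was tried on simulated data. Sums and ratios were compared by exact permutation of the 6 libraries. Aligned length was the ratio of coverage to FPKM in single-transcript genes. Promoter windows were read from GRCm39 with pysam 0.24.0, and 99.0% of gene IDs were in GENCODE M39. Other steps used Python 3.11.15, pandas 2.3.3, numpy 2.4.6 and matplotlib 3.10.9.

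The members and lists were chosen with earlier results of these data known. Values were given for the 10 members, *Pparg*, the thermogenic genes, all tested Notch-responsive genes, and, in the pathway list, genes past a 2-fold difference and the largest called change of each role with a mean TPM of at least 1. *Notch4*, *Jag2*, *Psenen*, *Mib1*, *Mib2*, *Neurl1b*, the named adipocyte markers, *Des*, *Cspg4*, *Cnn1*, overlapping transcripts and *Rbpj-ps3* were added after their values were seen. The same holds for *Tle2*, *Kdr*, *Cd68* and *Pecam1*. Results for a few genes and a promoter are not reported here. Replicates are biological per the labels. Any pair of libraries shared equal TPM in 0.0583% of tested genes or fewer, so none was deposited in duplicate.

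In addition the comparison was repeated with 14 other settings, namely pseudocounts of 0.1 and 1, no low-value filter, a TPM of at least 1, FPKM, median-ratio scaling, no intensity trend, the replicate block, and each library left out in turn. Coverage scaled to the same sum over all genes in each library was added after the data were seen.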

Additional observations from a re-analysis of the deposited data

How the results depend on the processing

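The decrease of *Notch2* kept its direction and its call under all 15 alternatives, with a log2 fold change between -0.73 and -0.55 and an adjusted p of at most 0.000604 (limma). The number of members called rose from 1 to 2 with FPKM and with median-ratio scaling, which added *Hes1*, and to 2 with no intensity trend, with scaled coverage (chosen after the data were seen) and without K382Q replicate 1, which added *Notch3*. It was 1 to 2 when each library was left out in turn. *Notch3* reached adjusted p = 0.0293 with no intensity trend and 0.0204 with scaled coverage (log2 fold change -0.36). *Jag1* turned to 0.0078 with FPKM and 0.073 with median-ratio scaling. *Rbpj* turned to 0.049 and 0.117 under the same settings, and it ranged from -0.077 to 0.0022 when each library was left out. *Notch1*, *Hey1* and *Hey2* kept their direction and stayed outside the threshold wherever they were tested, and *Hey2* was not tested with FPKM or with a TPM of at least 1.

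Genes past an adjusted p of 0.05 and a 2-fold difference numbered 599, and 377 with FPKM. They numbered 889 with a pseudocount of 0.1 and 443 with a pseudocount of 1. Of all called genes 23.2% were higher in K382Q, which became 49.2% with median-ratio scaling and 36.3% with FPKM. For those past 2-fold the share was 32.7% and 49.1% with median-ratio scaling. The cause of these shifts was not tested.

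Deviations of same-numbered replicates from their group means were hardly correlated (-0.0177, 0.0507 and 0.0223). K382Q replicate 1 correlated best with K382R replicate 3 (0.0389). K382Q replicates 2 and 3 each correlated best with the K382R replicate of the same number. Correlations this near 0 over 3 replicates cannot show whether the numbers pair the samples. With the replicate block 1 member, 37 pathway genes (38 without it), 6987 of all genes (7415 without it) and 604 genes past 2-fold were called, and *Gata2* lost its call (adjusted p = 0.0833). Low depth limits *Dll1*, *Hey2* and *Heyl*, whose coverage was at most 1.52 reads per base.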

Other observations

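Some genes that the filter on low values left out of the main comparison also separated the mutants. *Il2ra*, a Notch-responsive gene of lymphocytes, was listed at 0.087, 0.041 and 0.0214 TPM in K382Q and 0.463, 0.539 and 0.783 in K382R. Its log2 fold change was -0.98 without the filter (adjusted p = 0.00380, limma) and -1.17 with scaled coverage (adjusted p = 0.00388). *Neurl3*, of the Neuralized family, was at 0, 0.310 and 0.224 TPM in K382Q and 0.607, 0.505 and 0.452 in K382R, opposite in direction to *Neurl2*, and did not pass in either of these settings (adjusted p = 0.0862 and 0.0577). Both lie below or near the filter on low values, and both were chosen after their values were seen.

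Delta-like ligands other than *Dll1* were close to 0. *Dll4* was at most 0.0641 TPM and *Dll3* at most 0.351 TPM in any library. *Hes5*, a Notch target of neural cells, was listed at 0 in all 6 libraries.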
